A study of Mus musculus with 12 samples.

Results

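Immediate early genes were described in mouse liver, in 4 groups of 3 males, measured on one-colour Agilent arrays with 1 array per mouse (12 arrays). The set held 38 genes given by name: the EGR factors, the FOS, JUN and ATF3 factors that form AP-1, KLF and NR4A factors, and other genes of the first transcriptional wave, including several of its brakes. Every one of the 38 had a probe on the array, and 34 were bright enough to be tested, out of 26405 genes and unnamed transcripts tested in all. The groups were wild-type mice given IIAEK (WT IIAEK), wild-type mice given vehicle (WT vehicle), Akp3-/- mice given IIAEK (KO IIAEK) and Akp3-/- mice given vehicle (KO vehicle). IIAEK is a pentapeptide, described in the labels as cholesterol-lowering and dosed by mouth at 600 mg/kg body weight a day for 14 days. Vehicle was a 5 g/L carboxymethylcellulose sodium salt solution. Akp3 encodes intestinal alkaline phosphatase (IAP), and the labels give the allele only as Akp3-/-, with no strain and no tissue restriction. All mice were 7 weeks old at the start by the series text and had no food for the last 8 h. The layout asks whether the peptide altered the liver transcriptome and whether this depended on IAP.

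Immediate early genes are transcribed within minutes of a stimulus, without new protein synthesis, because the factors that switch them on (SRF with its partners, and CREB) already sit in the cell and only need phosphorylation by MAP kinases or protein kinase A. Many of their products are transcription factors, and others, such as the dual-specificity phosphatases and Zfp36, shut the same signal down. In liver they are known for their surge after partial hepatectomy, with cytokines and growth factors, and during tissue handling or ischaemia, and their mRNAs are short-lived.

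The proximal promoters of 4 members are shown because they carry the elements through which SRF and CREB are known to act. The sequences are RefSeq's, from build GRCm38.p6, and cover the 250 bases before the annotated start, 5′ to 3′ on the gene's own strand. A promoter was listed for 28 of the 38 members. Capitals mark each CArG box, the binding motif of SRF, in the promoters of Srf (2 boxes; chr17:46556163-46556412, minus strand) and Zfp36 (1 box; chr7:28379229-28379478, minus strand). In the promoters of Dusp1 (chr17:26508473-26508722, minus strand) and Btg2 (chr1:134079156-134079405, minus strand) they mark the full cAMP response element TGACGTCA.
Srf: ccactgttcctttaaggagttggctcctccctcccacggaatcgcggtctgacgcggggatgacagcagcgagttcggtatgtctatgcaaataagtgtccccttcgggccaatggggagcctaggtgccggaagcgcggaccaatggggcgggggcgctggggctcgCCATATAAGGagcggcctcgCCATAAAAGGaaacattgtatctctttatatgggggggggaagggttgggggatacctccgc
Zfp36: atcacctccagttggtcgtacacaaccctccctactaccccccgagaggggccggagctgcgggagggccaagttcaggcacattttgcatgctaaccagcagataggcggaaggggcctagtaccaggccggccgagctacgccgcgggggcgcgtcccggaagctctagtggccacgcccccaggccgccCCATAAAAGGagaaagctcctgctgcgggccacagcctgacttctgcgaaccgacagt
Dusp1: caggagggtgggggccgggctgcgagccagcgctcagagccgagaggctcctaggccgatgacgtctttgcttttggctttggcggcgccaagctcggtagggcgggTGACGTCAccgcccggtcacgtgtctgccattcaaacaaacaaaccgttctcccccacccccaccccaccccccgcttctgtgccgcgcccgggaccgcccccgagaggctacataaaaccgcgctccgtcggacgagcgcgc
Btg2: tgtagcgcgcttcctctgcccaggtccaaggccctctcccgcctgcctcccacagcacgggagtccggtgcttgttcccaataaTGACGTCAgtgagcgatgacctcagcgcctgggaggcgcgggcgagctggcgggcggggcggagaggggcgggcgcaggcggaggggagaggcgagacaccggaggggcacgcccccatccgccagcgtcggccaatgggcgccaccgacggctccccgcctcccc
Both strands were searched. A CArG box was present in 3 of 28 member promoters (10.7%; Srf, Zfp36 and Dusp5) and in 1.4% of 27018 mouse promoters of the same length. TGACGTCA was present in 2 of 28 (7.14%; Btg2 and Dusp1) and in 1.62% of all promoters. The GC box GGGCGG, the motif of SP1, was present in 23 of 28 (82.1%) and in 32.9% of all promoters. The AP-1 element TGACTCA was found in 0 of 28 windows (4.43% of all) and the EGR element GCGTGGGCG in 0 of 28 (0.54% of all). Each gene was counted by 1 window, though some members have several listed starts. Over all listed windows of the members, a CArG box was found in 4 members and the full cAMP response element in 3. The GC box was found in 25, the AP-1 element in 1 and the EGR element in 1. These are matches of letters and not sites of binding.

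Each level below is the processed signal on a log2 scale, relative to the 75th percentile of its array, so that a level of 0 is that percentile, and they compare arrays for one gene, not genes with each other. On the 12 arrays the 75th percentile of the signal ran from 453.6 to 758.5 and 58.7% to 63.6% of probes were well above background. All 10 hepatocyte markers were tested. Both Akp3 probes were above background on 0 of 12 arrays, so the targeted gene does not check the genotype labels in this tissue. The first principal component over all genes tested carried 55.4% of the variance and set 4 vehicle arrays apart at 74.1 to 88.1 (WT vehicle 2 and 3, KO vehicle 1 and 3), while the other 8 arrays lay between -57.3 and -11.3. Those 4 arrays had 62.6% to 63.6% of probes well above background, against 58.7% to 62.1% on the other 8. Replicate 1 of every group was on slide 1 and replicates 2 and 3 on slide 2, and the 4 arrays came from both slides. The median log2 deviation of 6 small intestine markers from their 12-array means was 1.84 on WT vehicle 1 and 3.76 on WT vehicle 2, against -1.13 to 0.72 on the other arrays. That of 9 pancreas markers was 2.90 on WT vehicle 1, against -0.55 to 0.37 on the others.

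With IIAEK, immediate early genes had lower signals in both genotypes, and no single one passed the test. In WT livers 31 of the 34 members were lower with IIAEK, with a median log2 difference of -0.64, against 0.05 over all genes tested. In KO livers 30 of 34 were lower, with a median of -0.65, against 0.04 over all genes. Without the 4 vehicle arrays that stood apart, the median was -0.27 in WT, with 25 of 34 members lower, and -0.04 in KO, with 22 of 34 lower. With all arrays the differences ran from -3.34 (Egr2) to 0.47 (Btg1) in WT and from -2.15 (Atf3) to 0.27 (Nr4a3) in KO. In bulk liver, fewer cells of a type that carries such a transcript and less RNA of it per cell cannot be told apart.

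A gene was called at a limma adjusted p under 0.05 (Benjamini-Hochberg over the 26405 genes, two-sided). By limma, 0 members were called for IIAEK in WT (adjusted p 0.393 to 0.992), where 0.00379% of all genes were called, and 0 in KO (0.664 to 0.922), where 0.0% were called. At an unadjusted p under 0.05, 17 members were lower and 1 was higher in WT, where 6.63% of all genes were lower and 6.02% higher at that threshold. In KO 13 members were lower and 0 higher, where 2.67% of all genes were lower and 3.62% higher. Values under 0 were found for 44.8% of all genes in WT and 44.3% in KO. The signal was at least 2-fold lower with IIAEK for 15 members in WT (44.1%, against 5.25% of all genes) and for 12 in KO (35.3%, against 2.83%).

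In WT, members were called only when WT vehicle 1 alone was left out. Then 17 members were called, 16 of them lower and Btg1 higher, among 3939 of the 26405 genes. WT vehicle 1 was the WT vehicle array that did not stand apart over all genes. Without it the WT vehicle group held only WT vehicle 2 and 3, which did. Leaving out any other array gave 0 members called in WT, and leaving out any array gave 0 in KO. With array weights 10 members were called in KO, all lower, among 655 of the 26405 genes. Within slide 1 the member median was -0.28 in WT and -1.15 in KO, and within slide 2 it was -1.02 in WT and -0.45 in KO.

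**Figure D1:**
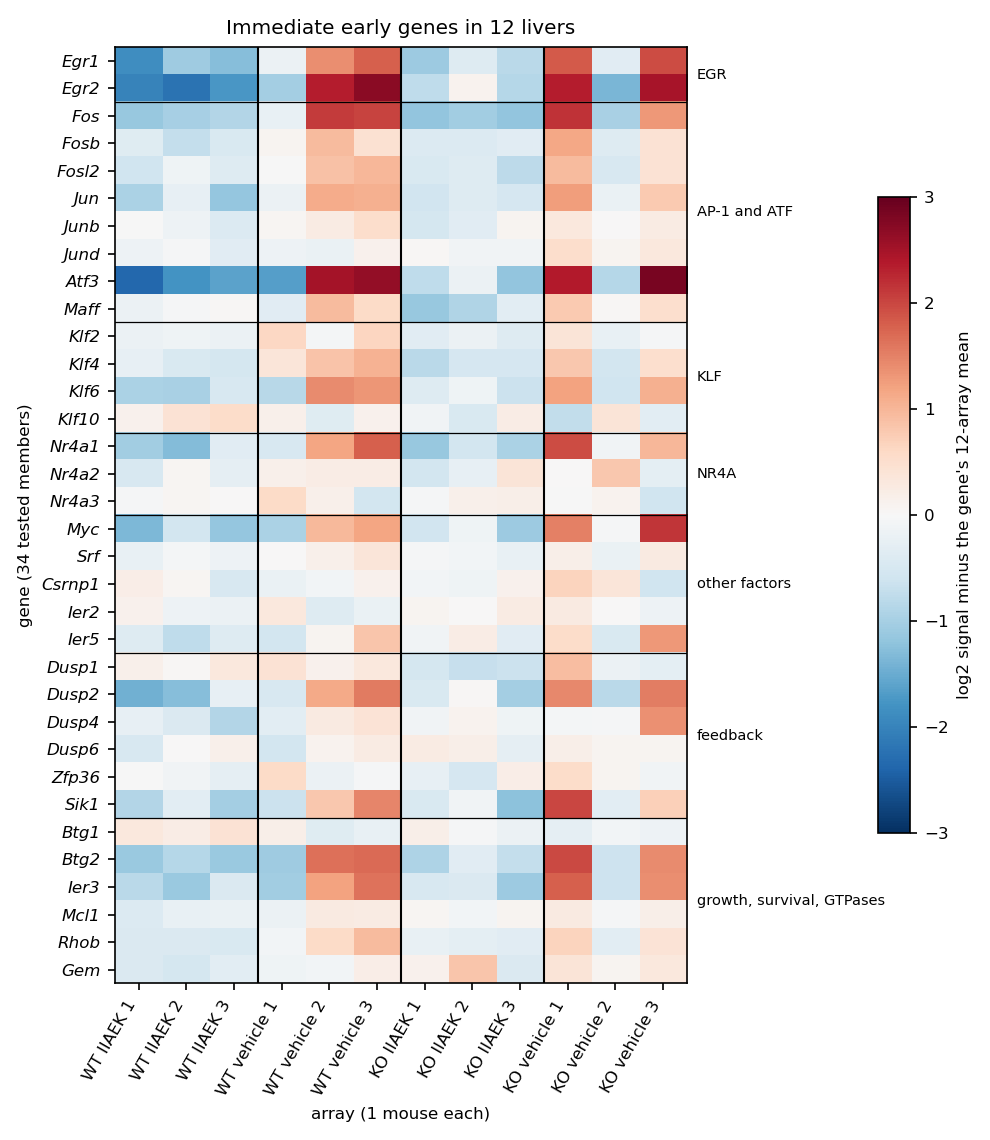
Heat map of the 34 tested members (rows, by role) on the 12 arrays (columns, 1 mouse each); colour is the log2 signal minus the gene's mean over the 12 arrays. WT vehicle 2 and 3 and KO vehicle 1 and 3 are red in most rows, while WT vehicle 1 and KO vehicle 2 look closer to the IIAEK arrays.

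The EGR factors are zinc-finger proteins that relay growth and stress signals. Egr1, the best-known of them, stood at -2.20, -1.41 and -1.61 in WT IIAEK livers, against -0.51, 1.07 and 1.47 in WT vehicle livers. In KO IIAEK livers it stood at -1.42, -0.72 and -1.13, against 1.51, -0.67 and 1.63 in KO vehicle livers. All 6 IIAEK arrays were below all 6 vehicle arrays, though KO vehicle 2 was above the highest IIAEK array by little and the vehicle groups were wide. The mean was 5.34-fold lower with IIAEK in WT (-2.42, SE 0.63, limma adjusted p = 0.393) and 3.76-fold lower in KO (-1.91, SE 0.63, limma adjusted p = 0.664). Egr2, a factor of nerve myelination and lymphocytes, stood at -3.29, -3.49 and -3.03 in WT IIAEK livers, against -2.30, 1.08 and 1.43 in WT vehicle livers, and at -2.03, -1.17 and -2.13 in KO IIAEK livers, against 1.07, -2.66 and 1.19 in KO vehicle livers. The WT groups did not overlap, whereas KO vehicle 2 was below all 3 KO IIAEK arrays. The log2 difference of Egr2 was -3.34 (SE 1.09) in WT and -1.64 (SE 1.09) in KO, with limma adjusted p of 0.393 and 0.664. Egr3 was above background on 4 arrays only, the same 4 vehicle arrays that stood apart, and was not tested. Its vehicle mean was 2.73-fold in WT and 2.32-fold in KO above the lowest signal that was above background on the IIAEK arrays. Only 2 of 3 vehicle arrays measured it in each genotype. The mean also takes in the third, below background (-5.02 on WT vehicle 1 and -6.32 on KO vehicle 2), so these are not strict bounds.

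The FOS proteins pair with JUN proteins to form AP-1. Fos stood at -2.94, -2.80 and -2.68 in WT IIAEK livers, against -2.01, 0.31 and 0.23 in WT vehicle livers, and at -2.97, -2.83 and -2.98 in KO IIAEK livers, against 0.37, -2.76 and -0.50 in KO vehicle livers. The 6 IIAEK arrays lay close together, and within each genotype they were below every vehicle array. KO vehicle 2 lay inside the range of the WT IIAEK arrays. Its log2 difference was -2.31 (SE 0.74) in WT and -1.96 (SE 0.74) in KO (limma adjusted p = 0.393 and 0.664). Fosb, a close paralog of Fos, stood at -3.47, -3.83 and -3.57 in WT IIAEK livers, against -3.02, -2.16 and -2.65 in WT vehicle livers, and at -3.53, -3.52 and -3.46 in KO IIAEK livers, against -1.95, -3.51 and -2.69 in KO vehicle livers. WT groups did not overlap, and KO vehicle 2 lay among the KO IIAEK arrays. The mean was 2.02-fold lower in WT and 1.73-fold lower in KO. In WT its log2 difference of -1.02 was -0.36 with normexp background correction and -0.42 with the mean over probes. Fosl2, the FOS-related FRA-2, averaged 0.17 ± 0.23 in WT IIAEK livers, against 1.18 ± 0.55 in WT vehicle livers (SD, n = 3 each), without overlap, and 0.02 ± 0.21 in KO IIAEK livers, against 0.86 ± 0.73 in KO vehicle livers, with overlap. Fosl1 (FRA-1) was above background on 0 of 12 arrays.

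Jun, the main partner of FOS, stood at 1.36, 2.07 and 1.16 in WT IIAEK livers, against 2.13, 3.42 and 3.37 in WT vehicle livers, and at 1.73, 1.94 and 1.82 in KO IIAEK livers, against 3.57, 2.12 and 3.09 in KO vehicle livers. As with Egr1, each of the 6 IIAEK arrays was below each of the 6 vehicle arrays, WT IIAEK 2 being the closest to them. Of the 34 members only Egr1 and Jun separated 6 against 6 in this way, which 0.269% of all genes did in the lower direction. The mean of Jun was 2.72-fold lower in WT (-1.44, SE 0.42) and 2.14-fold lower in KO (-1.10, SE 0.42), with limma adjusted p of 0.393 and 0.664. Junb, which often restrains JUN, stood at 4.04, 3.90 and 3.65 in WT IIAEK livers, against 4.11, 4.32 and 4.58 in WT vehicle livers, and at 3.53, 3.73 and 4.15 in KO IIAEK livers, against 4.37, 4.07 and 4.30 in KO vehicle livers. The WT groups were apart by little and the KO groups overlapped. Jund, the constitutive member of the family, stood at 4.74, 4.84 and 4.54 in WT IIAEK livers, against 4.74, 4.68 and 5.01 in WT vehicle livers, and at 4.92, 4.77 and 4.77 in KO IIAEK livers, against 5.41, 4.96 and 5.19 in KO vehicle livers. It had one of the narrow ranges among the members, 0.87 over the 12 arrays, and only the KO groups did not overlap.

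Atf3, a stress-induced partner of JUN, had a range of 5.22 over the 12 arrays, the widest of the 38 members. It stood at -3.28, -2.71 and -2.53 in WT IIAEK livers, against -2.56, 1.59 and 1.72 in WT vehicle livers, and at -1.67, -1.08 and -2.09 in KO IIAEK livers, against 1.46, -1.77 and 1.94 in KO vehicle livers. The groups overlapped in both genotypes: WT vehicle 1 and KO vehicle 2 lay with the IIAEK arrays, and the 4 other vehicle arrays lay far above all 8. The log2 difference was -3.09 (SE 1.14) in WT and -2.15 (SE 1.14) in KO (limma adjusted p = 0.393 and 0.664). Maff, a small MAF protein without an activation domain of its own, stood at -0.20, -0.07 and -0.01 in WT IIAEK livers, against -0.37, 0.92 and 0.55 in WT vehicle livers, and at -1.17, -0.94 and -0.34 in KO IIAEK livers, against 0.76, -0.01 and 0.46 in KO vehicle livers. Here the KO groups were apart and the WT groups overlapped. Its KO difference of -1.22 (SE 0.33) had the smallest unadjusted p of the 34 members in that genotype, 0.00385, and a limma adjusted p of 0.664.

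**Figure D2:**
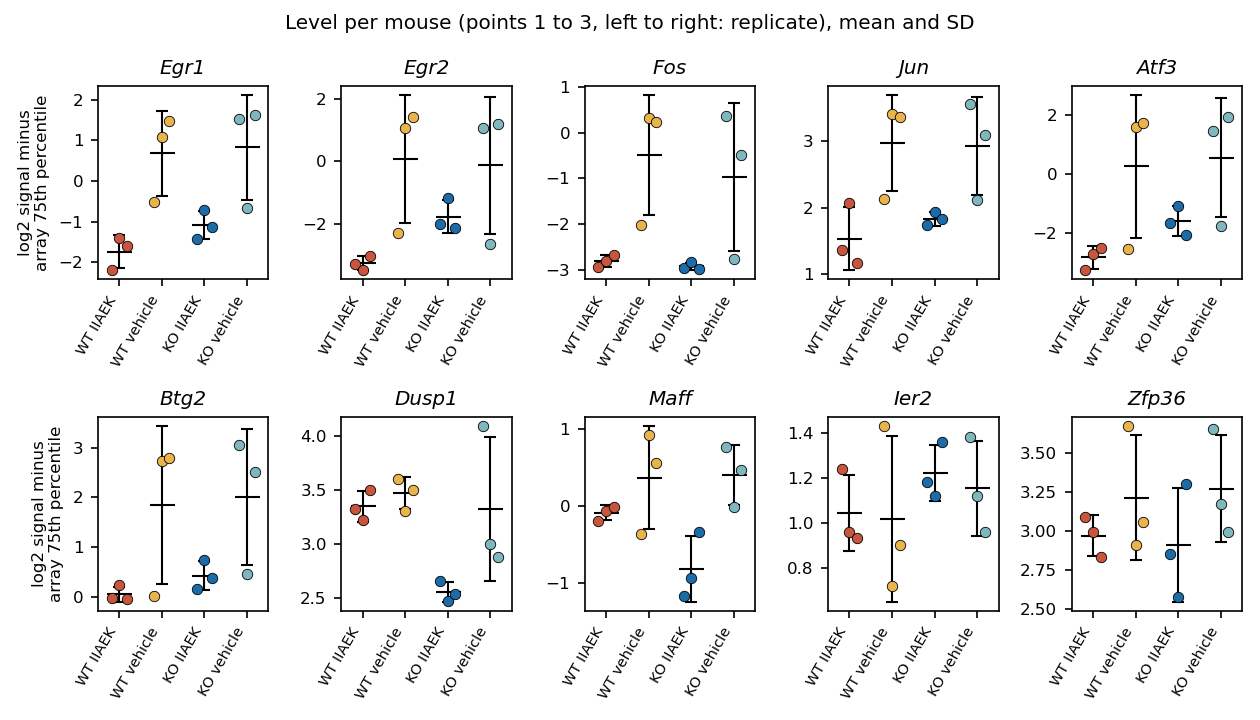
Levels of 10 members in each mouse (points; log2 signal minus the array's 75th percentile), with the group mean and SD (n = 3), in a panel per gene with an axis of its own. For Egr1, Egr2, Fos, Jun, Atf3 and Btg2 each vehicle group holds 1 point near the IIAEK groups and 2 well above them, while Ier2 and Zfp36 overlap in both genotypes.

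Among the KLF factors, Klf4, which regulates differentiation and the response of vessel walls and macrophages, stood at -0.06, -0.27 and -0.35 in WT IIAEK livers, against 0.55, 1.04 and 1.23 in WT vehicle livers, and at -0.63, -0.31 and -0.31 in KO IIAEK livers, against 1.0, -0.36 and 0.70 in KO vehicle livers. WT groups were apart, and KO vehicle 2 was the single KO vehicle array that lay within the KO IIAEK range. The mean was 2.25-fold lower in WT (-1.17, SE 0.31) and 1.82-fold lower in KO (-0.86, SE 0.31), and limma adjusted p was 0.393 and 0.664. Klf2, the flow-responsive factor of endothelium, stood at 1.56, 1.60 and 1.57 in WT IIAEK livers, against 2.36, 1.68 and 2.37 in WT vehicle livers, and at 1.40, 1.57 and 1.35 in KO IIAEK livers, against 2.13, 1.52 and 1.71 in KO vehicle livers. Unlike most members it was high in WT vehicle 1 and low in WT vehicle 2. Klf6, expressed in injured liver, averaged 1.41 ± 0.27 in WT IIAEK livers, against 2.84 ± 1.27 in WT vehicle livers, and 1.83 ± 0.26 in KO IIAEK livers, against 2.76 ± 1.01 in KO vehicle livers (SD, n = 3 each). Klf10, a TGF-beta-induced factor, had the opposite sign, with log2 differences of 0.40 (SE 0.29) in WT and 0.12 (SE 0.29) in KO.

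The NR4A proteins are nuclear receptors that act without a known bound ligand. Nr4a1, induced in liver by glucagon and cAMP, stood at -0.10, -0.35 and 0.60 in WT IIAEK livers, against 0.46, 2.12 and 2.73 in WT vehicle livers, and at -0.19, 0.40 and 0.00 in KO IIAEK livers, against 2.91, 0.84 and 1.94 in KO vehicle livers. WT IIAEK 3 lay above WT vehicle 1, and the KO groups did not overlap. Its mean was 3.3-fold lower in WT (-1.72, SE 0.60) and 3.54-fold lower in KO (-1.82, SE 0.60, limma adjusted p = 0.393 and 0.664). The differences of its relatives were smaller: -0.44 (SE 0.30) and -0.30 (SE 0.30) for Nr4a2, and -0.05 (SE 0.27) and 0.27 (SE 0.27) for Nr4a3, in WT and KO in that order. A second Nr4a2 probe, above background on 12 arrays, gave -0.19 in WT and -0.36 in KO.

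Myc, the growth factor-responsive regulator of ribosome and nucleotide synthesis, stood at -2.13, -1.33 and -1.94 in WT IIAEK livers, against -1.73, 0.20 and 0.41 in WT vehicle livers, and at -1.35, -0.90 and -1.87 in KO IIAEK livers, against 0.73, -0.82 and 1.37 in KO vehicle livers. WT vehicle 1 lay inside the WT IIAEK range, and KO vehicle 2 was above the KO IIAEK arrays by little. The log2 difference was -1.43 (SE 0.63) in WT and -1.80 (SE 0.63) in KO (limma adjusted p = 0.393 and 0.664), and its second probe gave -1.17 and -1.43. Srf, itself the factor behind many members, stood at -0.24, -0.09 and -0.17 in WT IIAEK livers, against -0.02, 0.14 and 0.35 in WT vehicle livers, and at -0.05, -0.10 and -0.24 in KO IIAEK livers, against 0.15, -0.23 and 0.26 in KO vehicle livers. All values of Srf lay within 0.59 of each other, and only the WT groups were apart. Ier2, a nuclear protein of the early wave, stood at 1.24, 0.96 and 0.93 in WT IIAEK livers, against 1.43, 0.72 and 0.90 in WT vehicle livers, and at 1.18, 1.12 and 1.36 in KO IIAEK livers, against 1.38, 1.12 and 0.96 in KO vehicle livers. These overlapped in both genotypes, with differences of 0.02 (SE 0.20) in WT and 0.07 (SE 0.20) in KO. Ier5, a regulator of HSF1, averaged 1.51 ± 0.22 in WT IIAEK livers, against 2.15 ± 0.69 in WT vehicle livers, and 1.96 ± 0.29 in KO IIAEK livers, against 2.49 ± 0.89 in KO vehicle livers (SD, n = 3 each). Csrnp1 differed by -0.01 (SE 0.29) in WT and -0.17 (SE 0.29) in KO.

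Among the genes that damp the signal, Dusp1, the nuclear phosphatase of p38 and JNK, had groups apart in KO and not in WT. It stood at 3.33, 3.22 and 3.5 in WT IIAEK livers, against 3.60, 3.31 and 3.5 in WT vehicle livers, and at 2.66, 2.48 and 2.54 in KO IIAEK livers, against 4.09, 3.00 and 2.88 in KO vehicle livers. WT groups overlapped, and the 3 KO IIAEK arrays were the lowest of all 12. The difference was -0.12 (SE 0.27) in WT and -0.76 (SE 0.27) in KO (limma adjusted p = 0.85 and 0.664), and the test of the difference between genotypes is given below. Dusp2, a nuclear phosphatase of immune cells, had lower means in both genotypes, 3.3-fold in WT and 2.31-fold in KO, and overlapped in both. Dusp4 was 1.56-fold lower in WT and 1.39-fold in KO, while Dusp6, the cytoplasmic phosphatase of ERK, differed by -0.03 (SE 0.24) in WT and -0.06 (SE 0.24) in KO. Dusp5, the nuclear phosphatase of ERK, was above background on 0 of 12 arrays. Zfp36 (tristetraprolin), which speeds the decay of AU-rich mRNAs, stood at 3.09, 2.99 and 2.83 in WT IIAEK livers, against 3.67, 2.91 and 3.06 in WT vehicle livers, and at 2.85, 2.58 and 3.30 in KO IIAEK livers, against 3.65, 3.17 and 2.99 in KO vehicle livers. It overlapped in both genotypes and was highest in WT vehicle 1 and KO vehicle 1, which share slide 1. WT IIAEK 1 and KO IIAEK 1, on the same slide, were at 3.09 and 2.85. Sik1, a cAMP-induced kinase that restrains CREB coactivators, had 2.43-fold lower means in WT and 2.65-fold lower means in KO, with overlap in both.

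The remaining members act on growth, survival and the cytoskeleton. Btg1, an antiproliferative partner of the mRNA deadenylase, was among the 3 members with a higher mean with IIAEK in WT, beside Klf10 and Ier2. It stood at 4.39, 4.29 and 4.51 in WT IIAEK livers, against 4.25, 3.70 and 3.84 in WT vehicle livers, and at 4.26, 4.04 and 3.89 in KO IIAEK livers, against 3.80, 3.99 and 3.92 in KO vehicle livers. All 3 WT IIAEK arrays were above the WT vehicle arrays (0.47, SE 0.17, limma adjusted p = 0.393), and the KO groups overlapped. A second Btg1 probe gave 0.55 in WT and -0.17 in KO, against 0.47 and 0.17 for the brighter one. Its paralog Btg2, a p53 target, had 3.44-fold lower means in WT and 2.99-fold lower means in KO, and averaged 0.06 ± 0.16 in WT IIAEK livers, against 1.85 ± 1.58 in WT vehicle livers, and 0.43 ± 0.29 in KO IIAEK livers, against 2.01 ± 1.37 in KO vehicle livers (SD, n = 3 each). WT vehicle 1, at 0.03, lay within the WT IIAEK arrays. Rhob, a short-lived GTPase of endosomes, stood at 0.83, 0.83 and 0.80 in WT IIAEK livers, against 1.17, 1.82 and 2.20 in WT vehicle livers, and at 1.02, 0.95 and 0.91 in KO IIAEK livers, against 1.91, 0.93 and 1.66 in KO vehicle livers. The 6 IIAEK arrays of Rhob were tight, the WT groups were apart, and KO vehicle 2 fell within the KO IIAEK range.

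Mcl1, a BCL-2 family protein that hepatocytes need for survival, stood at 4.31, 4.48 and 4.52 in WT IIAEK livers, against 4.54, 4.99 and 4.97 in WT vehicle livers, and at 4.76, 4.64 and 4.79 in KO IIAEK livers, against 4.98, 4.68 and 4.89 in KO vehicle livers. WT groups were apart by little, and the KO groups overlapped. Gem, a GTPase that inhibits calcium channels, stood at -0.80, -0.90 and -0.69 in WT IIAEK livers, against -0.51, -0.46 and -0.18 in WT vehicle livers, and at -0.25, 0.47 and -0.81 in KO IIAEK livers, against 0.02, -0.30 and -0.06 in KO vehicle livers. Only in WT were its groups apart, and KO IIAEK 2 was the highest of the 12 arrays. Ier3, an early gene of survival signalling, had 2.61-fold lower means in WT and 2.86-fold lower means in KO, with overlap in both. Arc, best known from neurons, was above background on 6 arrays and was not tested. In WT, 2 of 3 vehicle arrays measured it. The mean of all 3 was 2.4-fold above the lowest signal above background on the IIAEK arrays, which is not a strict bound either. In KO 2 of 3 IIAEK arrays and 2 of 3 vehicle arrays measured it.

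Counted over the list, 14 members were lower with IIAEK in WT without overlap (Egr1, Egr2, Fos, Fosb, Fosl2, Jun, Junb, Klf2, Klf4, Nr4a2, Rhob, Srf, Gem and Mcl1), against 5.7% of all genes, and 1 (Btg1) was higher, against 7.26% of all genes. In KO 8 members were lower without overlap (Egr1, Fos, Jun, Jund, Nr4a1, Dusp1, Myc and Maff), against 6.26% of all genes, and 0 were higher, against 8.77% of all genes. Lower values in both genotypes were found for 30 of 34 members (88.2%), against 33.2% of all genes tested. The WT and KO comparisons share no arrays, but each vehicle group held some of the 4 arrays that stood apart over all genes. Without those 4 arrays, which left 1 vehicle array per genotype, 25 of 34 members were lower in WT and 22 of 34 in KO.

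Averaged over the genotypes, 30 of 34 members were lower with IIAEK, with a median of -0.65, against 0.05 over all genes, of which 43.9% were under 0. Without the 4 vehicle arrays that stood apart, the median was -0.15, with 28 of 34 lower and 0 called. By limma 0 members were called (adjusted p 0.181 to 0.87), and 0.0% of all genes were. At an unadjusted p under 0.05, 22 members were lower and 1 was higher, where 11.1% of all genes were lower and 11.8% higher. Egr1 had the smallest p of the members, with a mean 4.48-fold lower (-2.16, SE 0.44, limma unadjusted p = 0.000524, adjusted p = 0.181). After it came Klf4 (-1.02, SE 0.22), Jun (-1.27, SE 0.30), Nr4a1 (-1.77, SE 0.42) and Fos (-2.14, SE 0.53). The count depended on the arrays and on array weights. Without WT vehicle 1, 20 members were called (19 lower), and without KO vehicle 2, 17 (17 lower). With array weights 23 were called (22 lower). Those settings called 6565, 2604 and 7556 of the 26405 genes, in that order. Without WT vehicle 1 or KO vehicle 2, the vehicle group of that genotype held only arrays that stood apart. Leaving out WT vehicle 1 and 2 left 1 WT vehicle array, and the member median was then -0.91.

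**Figure D3:**
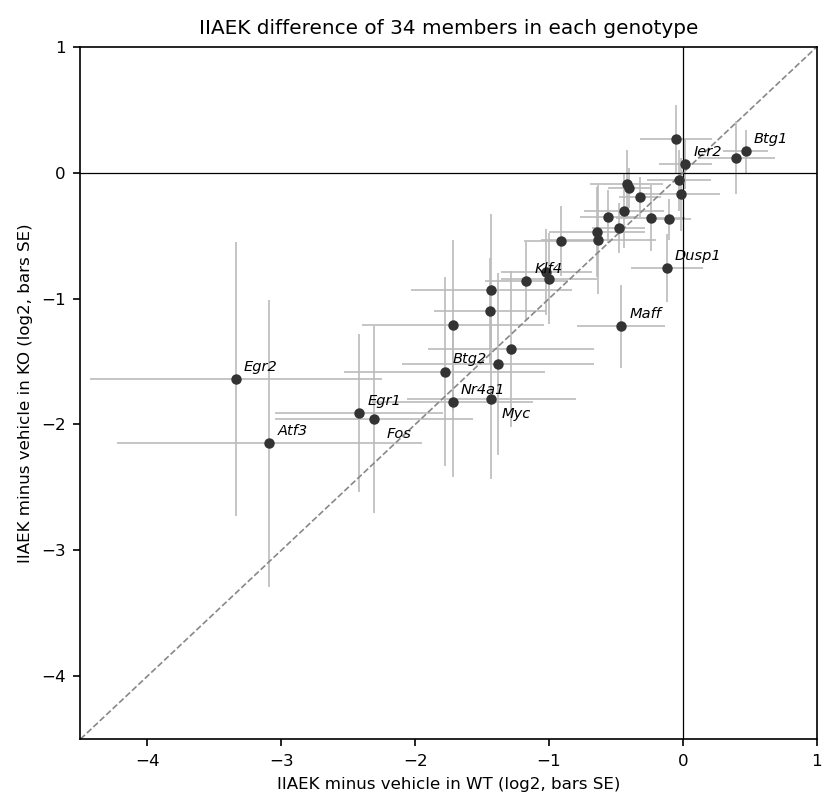
Difference with IIAEK (log2, IIAEK minus vehicle) in WT on the horizontal axis and in KO on the vertical axis for the 34 tested members, with SE bars (n = 3 per group); the dashed line marks equal differences. Most points lie below 0 on both axes, with Dusp1 and Maff further down in KO and Egr2 further left in WT.

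Whether the IIAEK difference depended on Akp3 was tested by the interaction, the KO difference minus the WT difference. No member passed: 0 of 34 were called by limma (adjusted p 1.0 for each), 0.0% of all genes were, and 0 members had an unadjusted p under 0.05, where 1.56% of all genes did. The median was 0.15, against 0.01 over all genes, and 12 members were under 0, against 48.9% of all genes. Single vehicle arrays moved this median: it was -0.14 without KO vehicle 2, with 25 of 34 under 0, 0.01 without WT vehicle 3, 0.07 without WT vehicle 2, 0.36 without KO vehicle 1 and 0.41 without WT vehicle 1. It was -0.88 within slide 1 and 0.46 within slide 2. The smallest p values belonged to Dusp1 (-0.64, SE 0.38, unadjusted p = 0.124 by limma), Maff (-0.75, SE 0.47), Btg1 (-0.30, SE 0.24) and Mcl1 (0.28, SE 0.23). Egr2 had the widest positive value, 1.70 (SE 1.53), with an SE almost as large.

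Without peptide, the members were as often lower as higher in KO livers. The KO vehicle minus WT vehicle median was 0.0, against -0.05 over all genes, with 17 members under 0 and 17 not, where 56.8% of all genes were under 0. By limma 0 members were called (adjusted p 0.737 to 0.999; 0.00379% of all genes), and 1, Jund, was higher at an unadjusted p under 0.05 (0.38, SE 0.16), where 6.62% of all genes passed in either direction. No member separated the groups without overlap, which 8.44% of all genes did. The median was 0.81 within slide 1, -0.44 within slide 2 and -0.35 without WT vehicle 1 and 2, so its sign differed between these settings.

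With peptide, the KO IIAEK minus WT IIAEK median was 0.12, against -0.02 over all genes, with 10 of 34 members under 0, against 52.7% of all genes. The comparison shares arrays with both IIAEK comparisons. By limma 0 members were called (adjusted p 0.628 to 0.995; 0.00757% of all genes). Dusp1 was lower (-0.79, SE 0.27) and Gem higher (0.60, SE 0.27) at an unadjusted p under 0.05, where 7.83% of all genes passed. Dusp1, Btg1 and Maff were lower in KO IIAEK livers without overlap, and Egr2, Atf3, Ier5, Dusp4, Rhob and Mcl1 were higher. These counts of 3 and 6 out of 34 are near the 27.6% of all genes that did not overlap in either direction.

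The 4 vehicle arrays that stood apart over all genes were also the high ones here. Of the 34 members 20 were higher on each of these 4 arrays than on any of the other 8, against 10.3% of all genes. Since the 4 arrays were singled out by all genes, members included, this is a description. They were Egr1, Egr2, Fos, Fosb, Fosl2, Jun, Junb, Atf3, Maff, Klf4, Klf6, Nr4a1, Myc, Srf, Dusp2, Sik1, Btg2, Ier3, Rhob and Mcl1. The median member deviation from its 12-array mean was -0.41, -0.29 and -0.39 on the WT IIAEK arrays, against -0.18, 0.43 and 0.61 on the WT vehicle arrays. It was -0.44, -0.17 and -0.37 on the KO IIAEK arrays, against 0.73, -0.18 and 0.43 on the KO vehicle arrays. WT vehicle 1 and KO vehicle 2 were therefore below 0 like the IIAEK arrays, and KO vehicle 2 lay at the level of KO IIAEK 2.

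Without those 4 arrays, 1 vehicle array was left in each genotype, assumed to vary like the other groups. In WT it was WT vehicle 1, where the tested pancreas and small intestine markers had high median deviations (2.90 and 1.84). The WT values of this setting rest on that array, and in KO they rest on KO vehicle 2. The member medians given above for this setting were nearer to 0 in both genotypes, and 0 members were called in each. In WT, the log2 difference of Egr1 was -1.23 (-2.42 with all arrays), of Egr2 -0.97 (-3.34), of Fos -0.80 (-2.31) and of Klf4 -0.78 (-1.17). That of Atf3 was -0.28 (-3.09 with all arrays), of Myc -0.07 (-1.43) and of Btg2 0.04 (-1.78). In KO, the difference of Maff was -0.80 (-1.22 with all arrays), of Nr4a1 -0.77 (-1.82), of Egr1 -0.42 (-1.91) and of Fos -0.17 (-1.96). Fosb was at 0.0 (-0.79 with all arrays) and Egr2 at 0.89 (-1.64), the opposite sign.

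**Figure D4:**
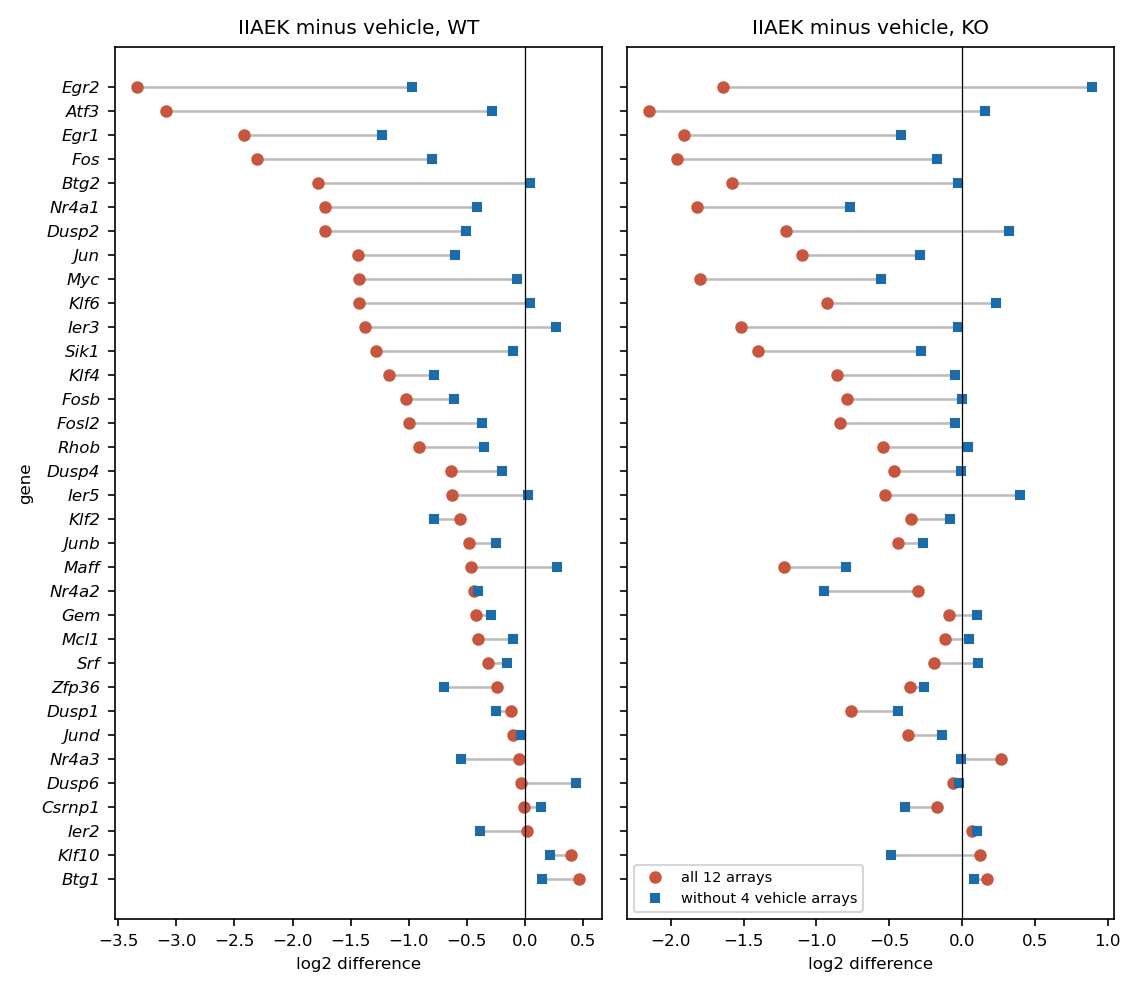
Log2 difference (IIAEK minus vehicle, horizontal axis) of each tested member in WT (left) and KO (right) from all 12 arrays (red circles) and after leaving out the 4 high vehicle arrays (blue squares). Most squares lie nearer to 0 than their circles, and in KO most lie close to 0.

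Some markers of other cell types were high on the same 4 arrays, and others on the same lists were not. Summed levels are in multiples of the array's 75th percentile signal. For neutrophils (5 of 8 listed markers tested) the sum over the 7 on the array was 2.21 to 4.73 in WT IIAEK livers, against 1.98 to 17.1 in WT vehicle livers, and 2.52 to 4.79 in KO IIAEK livers, against 1.74 to 16.0 in KO vehicle livers. Macrophage markers (10 of 10 tested) summed to 131 to 272 in WT IIAEK livers, against 165 to 469 in WT vehicle livers, and to 125 to 220 in KO IIAEK livers, against 169 to 409 in KO vehicle livers. Of the neutrophil markers tested, 4 of 5 (S100a8, S100a9, Mpo and Retnlg) were higher on each of the 4 arrays than on any other, against 10.3% of all genes. Of the macrophage markers 4 of 10 were (Marco, Cd68, Cd5l and C1qa), and Cd5l made up 40.5% to 52.8% of the summed signal. Clec4f, Timd4, Adgre1, Csf1r, Vsig4 and Cd163 were not. WT IIAEK 3 was above WT vehicle 2 and 3 for Clec4f and Timd4, markers of resident Kupffer cells, and Cd163 was low on WT vehicle 3 (-0.49) and KO vehicle 3 (0.36).

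Stellate cell and fibroblast markers (10 of 10 tested) summed to 119 to 144 in WT IIAEK livers, against 130 to 332 in WT vehicle livers, and to 131 to 203 in KO IIAEK livers, against 157 to 293 in KO vehicle livers. Dcn made up 62.5% to 83.5% of that sum and was the one marker of 10 that was higher on each of the 4 arrays than on any other. Cholangiocyte markers (5 of 5 tested) summed to 9.73 to 11.8 in WT IIAEK livers, against 8.71 to 61.6 in WT vehicle livers, and to 10.7 to 12 in KO IIAEK livers, against 11.1 to 30.7 in KO vehicle livers. Spp1 made up 92.4% to 97.7% of the cholangiocyte sum. Krt19, Epcam and Spp1 were higher on each of the 4 arrays than on any other, whereas Krt7 and Sox9 were not, and Sox9 stood at -2.37 on WT vehicle 2, against -1.20 on WT vehicle 3. Hepatocyte markers (10 of 10 tested) summed to 3760 to 4170 in WT IIAEK livers, against 2760 to 5280 in WT vehicle livers, and to 3550 to 4210 in KO IIAEK livers, against 2680 to 3890 in KO vehicle livers. In each of these 5 lists 0 markers on the array were below background on all 12 arrays. The part of these cells, or of the higher share of probes above background, in the differences of the immediate early genes was not tested.

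**Figure D5:**
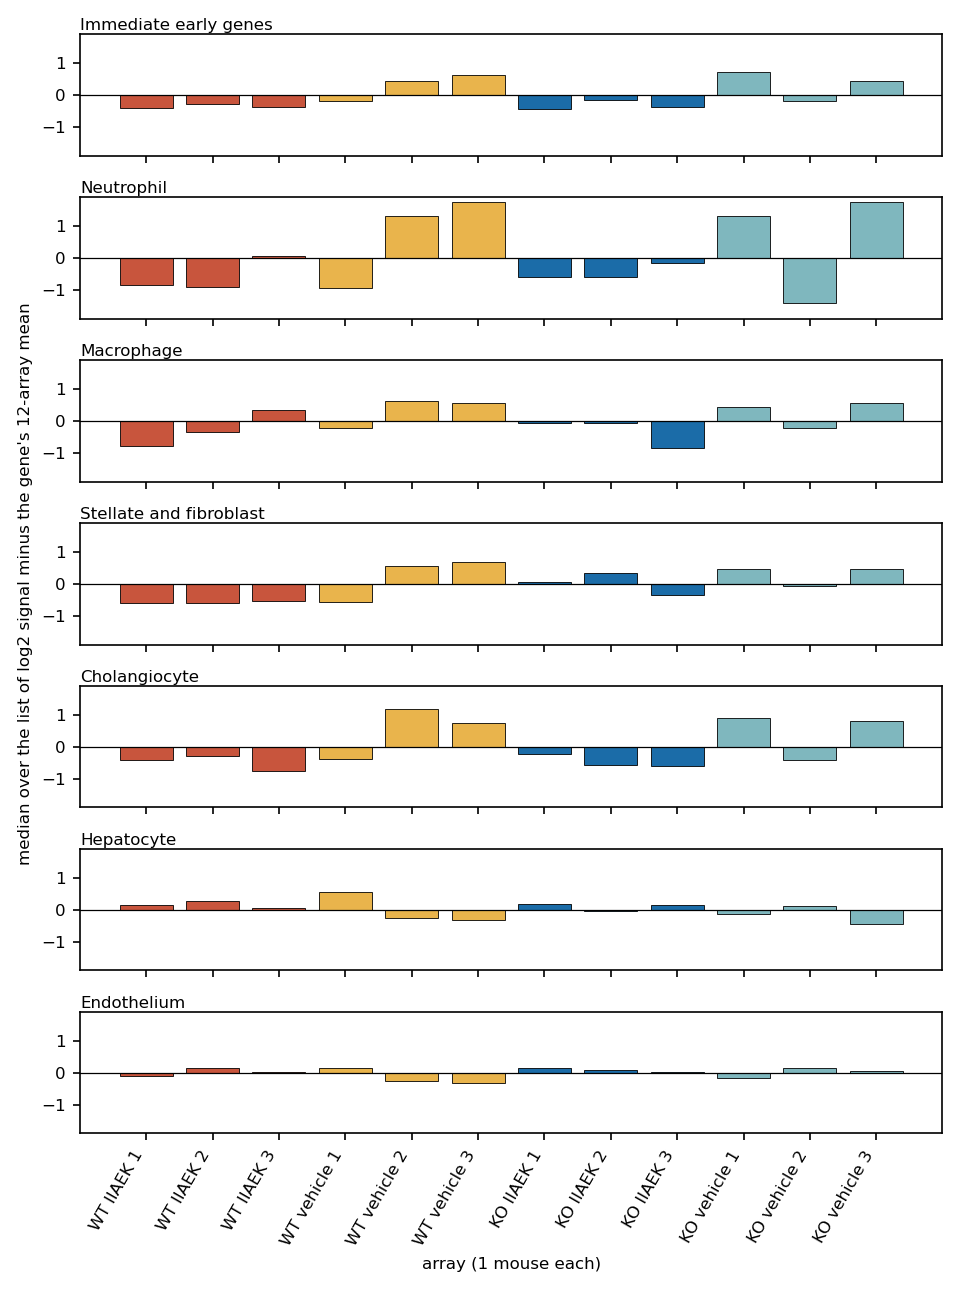
Median over each list of the log2 signal minus the gene's 12-array mean, by array, for the immediate early genes and 6 lists of cell type markers. The immediate early genes, neutrophil, macrophage, stellate and cholangiocyte lists are above 0 on WT vehicle 2 and 3 and KO vehicle 1 and 3, and the hepatocyte list is below 0 on them. Some IIAEK arrays are above 0 too: KO IIAEK 1 and 2 for the stellate list (0.07 and 0.33) and WT IIAEK 3 for the macrophage and neutrophil lists (0.35 and 0.05).

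The kinases and factors that act upstream had fewer lower than higher values with IIAEK, as had all genes tested. Of 30 genes from the receptor and RAS to ELK and CREB factors, 8 were lower with IIAEK in WT (against 44.8% of all genes) and 11 in KO (against 44.3%). Their medians were 0.2 and 0.08. In WT 1 was lower (Rps6ka3, an ERK-activated kinase, -0.68, SE 0.23) and 2 higher (Hras and Rps6ka1) at an unadjusted p under 0.05, in KO 0 were, and 0 were called in either. At that threshold 6.63% of all genes were lower and 6.02% higher in WT, and 2.67% and 3.62% in KO. Of 12 MAP kinase feedback genes outside the list, 8 were lower in WT (against 44.8% of all genes) and 7 in KO (against 44.3%). Their medians were -0.12 and -0.18, and 0 were called. Spry2, an inhibitor of RAS signalling, differed by -0.49 (SE 0.17) in WT and Spry1 by -0.36 (SE 0.14) in KO.

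Among other early and delayed early genes, most were lower with IIAEK. Of 28 tested out of 30, 22 (against 44.8% of all genes) were lower in WT and 21 (against 44.3%) in KO, with medians of -0.53 and -0.57. At an unadjusted p under 0.05, 9 were lower and 3 higher in WT, where 6.63% of all genes were lower and 6.02% higher. In KO 7 were lower and 0 higher, where 2.67% of all genes were lower and 3.62% higher, and 0 were called by limma in either. Phlda1, a pleckstrin homology protein of growth and survival control, had the opposite sign in WT (1.66, SE 0.50), and averaged over genotypes it was at 1.34 (SE 0.35). It was named after its values were seen. Ccn2, a matricellular protein and target of SRF and YAP, stood at 0.92, 1.31 and 0.40 in WT IIAEK livers, against 2.70, 3.85 and 3.70 in WT vehicle livers, and at 1.53, 0.87 and 1.10 in KO IIAEK livers, against 3.99, 1.31 and 2.61 in KO vehicle livers. WT groups were apart (-2.54, SE 0.57), and KO vehicle 2 lay within the KO IIAEK range. Gadd45b, a stress-response gene that is strongly induced in regenerating liver, stood at 0.01, 0.57 and 0.88 in WT IIAEK livers, against 0.60, 1.17 and 1.29 in WT vehicle livers, and at -0.55, -0.72 and -0.91 in KO IIAEK livers, against 1.33, 0.27 and 1.06 in KO vehicle livers. Its KO groups were apart (-1.61, SE 0.31, limma adjusted p = 0.664).

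Gadd45g, its paralog, went opposite ways in the genotypes. It stood at 5.49, 5.22 and 5.58 in WT IIAEK livers, against 3.80, 4.03 and 4.46 in WT vehicle livers, and at 4.33, 4.15 and 3.98 in KO IIAEK livers, against 5.35, 5.49 and 4.75 in KO vehicle livers. In WT all IIAEK arrays were above the vehicle arrays (1.34, SE 0.23), and in KO all were below them (-1.04, SE 0.23). The interaction was -2.38, SE 0.33 and was not called (limma unadjusted p = 1.79e-05, adjusted p = 0.473). Without WT vehicle 1 limma called the WT difference (adjusted p = 0.0294, range over alternatives 0.0294 to 0.718), and with array weights the KO difference was (0.0489, range 0.0489 to 0.983).

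The cytoskeletal targets of SRF and its MRTF partners gave the one gene called for IIAEK in WT. Of 17 tested out of 18, 15 were lower with IIAEK in WT (against 44.8% of all genes) and 15 in KO (against 44.3%). Their medians were -0.41 and -0.26, against 0.05 and 0.04 over all genes. Tagln (transgelin, of the contractile actin system), which is also on the stellate list above, stood at 2.49, 2.80 and 2.43 in WT IIAEK livers, against 4.11, 3.92 and 3.93 in WT vehicle livers, and at 3.32, 3.05 and 3.15 in KO IIAEK livers, against 3.31, 3.09 and 3.24 in KO vehicle livers. It fell in WT (-1.42, SE 0.15, limma adjusted p = 0.038), all 3 IIAEK arrays being below all vehicle arrays, WT vehicle 1 included. It stayed called in 9 of 26 alternatives that could test it (limma adjusted p 0.00555 to 0.529), and the difference stayed between -1.62 and -1.31. Among the alternatives without a call were a block for slide (0.0758), a block for replicate number (0.283) and leaving out any 1 array other than WT vehicle 1 or KO vehicle 2 (0.0671 to 0.199). Its interaction was 1.37, SE 0.21 (limma adjusted p = 0.623).

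Of 11 cytosolic heat shock genes tested, which are induced by protein damage, 4 were lower with IIAEK in WT (against 44.8% of all genes) and 10 in KO (against 44.3%), with medians of 0.13 and -0.34, and 0 were called in either. This list was not tested against the immediate early genes. Hspa1a, the inducible HSP70, differed by -1.15 (SE 0.49) in WT and -1.17 (SE 0.49) in KO, and Hspa8, its constitutive relative, by -0.63 (SE 0.22) in KO. The interaction was under 0 for 11 of 11 genes (against 48.9% of all genes), with a median of -0.35. At an unadjusted p under 0.05 there were 0, where 1.56% of all genes passed.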

How the data were processed

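Liver RNA was labelled with Cy3 and read on 12 Agilent arrays. Per the file headers, Feature Extraction subtracted the background and wrote 1 processed intensity for each spot, with no scaling between arrays. The deposited series table holds log2 values that match the scanner signals shifted to each array's 75th percentile and centred on each probe's median (r = 1 to 4 decimals), and its column medians ran from -0.154 to 0.172. Control spots and spots marked non-uniform were left out, and spots of a probe were averaged. The files name probes by transcript, and RefSeq gene names were matched for 32994 of 56605 probes. The brightest probe stood for a gene. 27 members had 1 probe and 11 had more. Values are log2 signal minus the array's 75th percentile. To be tested, a gene had to be flagged well above background on every array of some group, and the 34 tested members were so on 12 of 12 arrays. limma 3.58.1 in R 4.3.3 was fitted to all 12 arrays with 1 mean per group (8 residual and 2.73 prior degrees of freedom), and the fit was tested on simulated data. The 12 arrays limit the precision of each value.

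The members and gene lists, and the 4 arrays left out together, were chosen with earlier results of these data known. Values per array are given for the 8 members with the smallest p in each IIAEK comparison and the interaction, the 4 with the smallest p in each genotype comparison, and a fixed set (Egr1, Fos, Fosb, Jun, Junb, Jund, Atf3, Ier2, Nr4a1, Dusp1, Myc, Klf4, Zfp36, Srf and Mcl1). For related lists up to 3 genes by p are named. The 27 alternatives were normexp background correction (offset 50), quantile normalization, the series table, 2 other filters, the mean over probes, slide and replicate number as blocks, each slide alone, array weights, trend and robust options, a fit of only the groups compared, leaving out each array, and leaving out 2 sets of arrays. One label field gives weeks where titles and series text give days, and 14 days was used.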

Additional observations from a re-analysis of the deposited data

Results flagged for a closer look

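Gadd45g was the one gene of those described whose IIAEK arrays lay above all vehicle arrays in WT and below all of them in KO. The KO difference minus the WT difference was -2.38 on the log2 scale (SE 0.33), and limma's interaction test did not call it (adjusted p = 0.473, range over alternatives 0.101 to 1.0).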

How the results depend on the processing

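The median of the 34 members was under 0 for IIAEK in WT, in KO and averaged under each alternative run for it. Many of these alternatives could not move it. The series table, other filters, blocks, trend and robust options and a fit of only the groups compared keep each difference. In WT and in KO, so does leaving out an array of another group. Slide 1 alone, with 1 array a group, allowed no test, and a fit of only the groups compared was not run for the average or the interaction. In the other alternatives the count of members called by limma was 0 outside the settings named here. The average without WT vehicle 1 and 2, which left 1 WT vehicle array, is not counted among them. The WT median was -1.02 on slide 2 alone, -0.28 on slide 1 alone and -0.27 after leaving out the 4 high vehicle arrays. The KO median was -1.15 on slide 1 alone and -0.04 without the 4 arrays, and the averaged median was -0.15 without them. With normexp the medians were -0.51 in WT and -0.54 in KO. The size of single differences depended on the background correction: in WT normexp gave -1.95 for Egr1, -2.36 for Egr2 and -1.64 for Fos, against -2.42, -3.34 and -2.31. The KO minus WT median under vehicle was -0.44 on slide 2, 0.81 on slide 1 and -0.35 without WT vehicle 1 and 2, and the interaction median was -0.88 on slide 1 and -0.14 to 0.41 when single arrays were left out. Members called numbered 10 in KO and 23 in the average with array weights, and 16 in the average without WT vehicle 1 and 2. Leaving out each array in turn gave 0 to 17 members called in WT (17 without WT vehicle 1) and 0 to 20 in the average (20 without WT vehicle 1, 17 without KO vehicle 2). Groups of 3 mice with wide vehicle groups limit what can be called.

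Whether replicate numbers pair the mice could not be settled from these arrays. Same-numbered arrays had correlations of their deviations from -0.546 to 0.645, over 0.1 in 5 of 12 pairs. WT vehicle 1 and KO vehicle 2, which have different numbers, had 0.776. Replicate 1 of every group was also on slide 1. With the replicate block, 0 members were called in all 6 comparisons, with smallest adjusted p values of 0.464 for IIAEK in WT, 0.697 in KO and 0.237 averaged (limma). The medians kept their values, which a balanced layout fixes in advance. The slide as a block gave 0 members called too.

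Of 2575 values of single genes under the alternatives, 68 had the opposite sign, most of them close to 0. Many of the 2575 could not differ from the main fit. Other filters, blocks, trend and robust options, a fit of only the groups compared and leaving out an array of another group keep the difference. The count of 68 is therefore no measure of how stable the values are. Without the 4 vehicle arrays, the WT difference was -0.39 for Ier2, 0.27 for Ier3, 0.03 for Ier5, 0.04 for Klf6 and Btg2, 0.44 for Dusp6, 0.28 for Maff and 0.14 for Csrnp1. The KO difference was then 0.89 for Egr2, 0.0 for Fosb, 0.16 for Atf3, 0.4 for Ier5, 0.23 for Klf6, -0.49 for Klf10, -0.01 for Nr4a3, 0.32 for Dusp2, 0.04 for Rhob, 0.11 for Srf, 0.1 for Gem and 0.05 for Mcl1. On slide 1 alone the WT difference was 0.0 for Jund, -0.2 for Ier2, 0.25 for Ier3, 0.16 for Ier5, -0.02 for Klf10, 0.08 for Dusp4 and Dusp6, 0.17 for Maff and 0.41 for Csrnp1. The KO difference there was -0.19 for Ier2, -0.02 for Nr4a3 and 0.07 for Dusp6. Slide 1 also gave 0.45 for Klf4 (KO minus WT under vehicle) and interactions of 0.32 for Btg1, -2.11 for Egr2 and -0.54 for Rhob. On slide 2 alone Nr4a3 was at 0.23 in WT, Klf10 at -0.14, Csrnp1 at 0.12 and Gem at 0.01 in KO, and Myc at -0.03 for KO minus WT under vehicle. Nr4a3 in WT was 0.06 with normexp, quantile normalization and the mean over probes, 0.11 with array weights and 0.56 without WT vehicle 1 and 2. Ier2 in WT was -0.01 with quantile normalization, and in KO Gem was 0.01 with array weights and Btg1 0.0 with the mean over probes.

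Leaving out single arrays moved the WT difference of Ier2 between -0.13 and 0.23, of Nr4a3 between -0.35 and 0.21, of Dusp6 between -0.27 and 0.15, and of Csrnp1 between -0.14 and 0.19. It moved the KO difference of Ier2 between -0.03 and 0.18, of Klf10 between -0.14 and 0.42, of Nr4a2 between -0.56 and 0.02, of Dusp6 between -0.16 and 0.1, of Csrnp1 between -0.54 and 0.09 and of Gem between -0.42 and 0.22, and the interaction of Gem between 0.0 and 0.64. The causes of these changes were not tested.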
